A study of Rattus norvegicus with 15 samples.

Results

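Rat sciatic nerve 14 days after injury was compared with nerve 1 day after injury, the late against the acute injured nerve, on 6 of the series' 15 microRNA (miRNA) arrays. The miRNAs described are those that the scanner software detected on all 3 arrays of either group, 205 of the 350 rat miRNAs on the array. Of these, 168 were detected on all 6 arrays and 35 on all day 1 arrays but not on all day 14 arrays. Another 2, miR-455 and miR-34b, were detected on all day 14 arrays but not on all day 1 arrays. A further 39 miRNAs were detected on some of the 6 arrays without meeting the rule, and 106 on none.

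Both groups are sciatic nerve of adult male rats, 3 arrays each, that differ in the time since injury. The other arrays of the series hold uninjured nerve (day 0) and nerve on days 4 and 7, again 3 each. The descriptions of the injury disagree: the protocol gives a crush with a damaged piece of about 0.5 mm, and the series text a resection with 0.5 cm of proximal nerve. The labels name no strain and do not say whether each array is a separate animal or a pool. P-values therefore measure only the spread between these samples, which may be technical. RNA came from whole pieces of tissue, so fewer cells of a type and less RNA per cell cannot be told apart.

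A miRNA is a short RNA that lowers the output of messenger RNAs, chiefly through its seed, bases 2 to 8 from the 5′ end. In an injured peripheral nerve the cut axons break down, Schwann cells leave the myelinating state and divide, and neutrophils and then macrophages enter. Fibroblasts and vessels later rebuild the tissue while axons regrow. Many miRNAs are abundant in just a few of these cells, and others are induced by inflammatory or growth signals.

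Mature sequences were taken from RefSeq (build GRCr8) and matched by name for 164 of the 205 miRNAs, which carried 121 different seeds. The following are printed 5′ to 3′ with the seed in capitals. The first set comes from a group of neighbouring hairpins that was higher on day 14, together with 3 relatives encoded elsewhere that share the seed of miR-322.
miR-322: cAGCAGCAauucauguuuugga
miR-503: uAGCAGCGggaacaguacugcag
miR-542-3p: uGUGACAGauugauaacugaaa
miR-542-5p: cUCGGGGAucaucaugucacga
miR-497: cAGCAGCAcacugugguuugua
miR-195: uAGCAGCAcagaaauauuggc
miR-15b: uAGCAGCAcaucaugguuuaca

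The next set shows growth-linked, mesenchymal and inflammation-inducible miRNAs that were higher on day 14, and the other arm of the miR-21 hairpin, which was lower.
miR-21: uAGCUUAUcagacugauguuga
miR-21*: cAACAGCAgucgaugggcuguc
miR-199a-5p: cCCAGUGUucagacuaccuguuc
miR-214: aCAGCAGGcacagacaggcag
miR-146b: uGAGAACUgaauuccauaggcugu
miR-146a: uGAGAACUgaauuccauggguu

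The last set shows miRNAs that were lower on day 14 and detected on at least 2 arrays of each group. It begins with the 3 products of the sensory cluster, each with a seed of its own, and goes on to the red cell, myeloid, glial and smooth muscle miRNAs.
miR-182: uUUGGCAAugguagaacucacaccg
miR-183: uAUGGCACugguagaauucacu
miR-96: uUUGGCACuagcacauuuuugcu
miR-451: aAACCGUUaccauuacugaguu
miR-144: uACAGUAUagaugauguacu
miR-223: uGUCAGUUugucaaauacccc
miR-138: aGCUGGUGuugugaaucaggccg
miR-145: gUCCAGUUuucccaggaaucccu

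The 3 day 1 arrays lay on 1 slide and were scanned together. Day 14 replicates 1 and 2 shared a slide and a scan with the day 7 arrays, and day 14 replicate 3 had a slide and a scan of its own. No slide or scan held both groups, so slide and scan cannot be told apart from the time since injury. Day 14 replicate 3 stood apart from the other arrays, with 172 miRNAs detected against 239 and 220 on the other day 14 arrays and 203 to 228 on day 1. Its additive error was 14.8 in intensity units and its negative controls averaged -8.54, and 31 of the 205 miRNAs were missed on that array alone. Across the 231 miRNAs tested, Pearson's r with the other day 14 arrays was 0.971 and 0.975, against 0.993 between those 2 and at least 0.993 within day 1. The 75th percentile that each array was divided by was 533 to 586 on day 1 and 914, 627 and 916 on day 14. A bright corner control feature gave 86.1 to 113 on day 1 and 1037 to 1574 on day 14. The part of these differences in the results was not tested.

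Levels below are log2 of the scaled intensity, so that 0 is the array's 75th percentile, and are listed by replicate. Changes are day 14 minus day 1 on this scale with their standard error and the Benjamini-Hochberg adjusted p from limma, fitted over all 15 arrays (n = 3 arrays per group). Levels were not compared between miRNAs, since probes differ in binding. Summed levels of a list add the scaled levels before the log, so they follow mostly its brightest members.

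Of the 231 miRNAs tested, 126 (54.5%) passed at an adjusted p under 0.05, of which 55 (23.8%) were higher on day 14 and 71 (30.7%) lower. Among the 205 described here 50 were higher, 67 lower and 88 did not pass, which is near that background. A change of 2-fold or more was seen for 11 of the rises and 18 of the falls. The groups did not overlap for 116 of the 205, against 126 (54.5%) of all tested. The shares of all tested, 23.8% higher, 30.7% lower and 54.5% without overlap, are the background for each list and family below. Of the 168 miRNAs detected on all 6 arrays, 47 were higher and 44 lower. The 35 detected in full on day 1 alone had 1 rise and 23 falls, which are no separate support for falls since these miRNAs entered through day 1. The rises of miR-455 and miR-34b, which entered through day 14, are likewise no separate support for rises.

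The balance of rises and falls depended on the scaling. Rises made up 43.7% of the calls as reported, 62.5% with a percentile over all miRNAs of the array, 55.0% with quantile normalisation and 85.0% with no scaling. The median change of the 231 miRNAs was -0.07 as reported, 0.12 with the percentile over all miRNAs and 0.45 with no scaling. With a different background correction (normexp with an offset of 50) rises made up 20.5% of the calls and the median was -0.23. Under all of 5 other scalings (both other percentiles, quantile normalisation, no scaling and the authors' deposited value table), 44 of the 231 miRNAs (19.0%) stayed higher and past the test and 21 (9.09%) stayed lower and past it. Of the 205 described here these were 41 and 21, and a change is called held below where it is among them. No scaling gave 125 rises and 22 falls among the 231, so at most 22 falls could hold. The held counts therefore do not compare the stability of rises and falls.

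**Figure D1:**
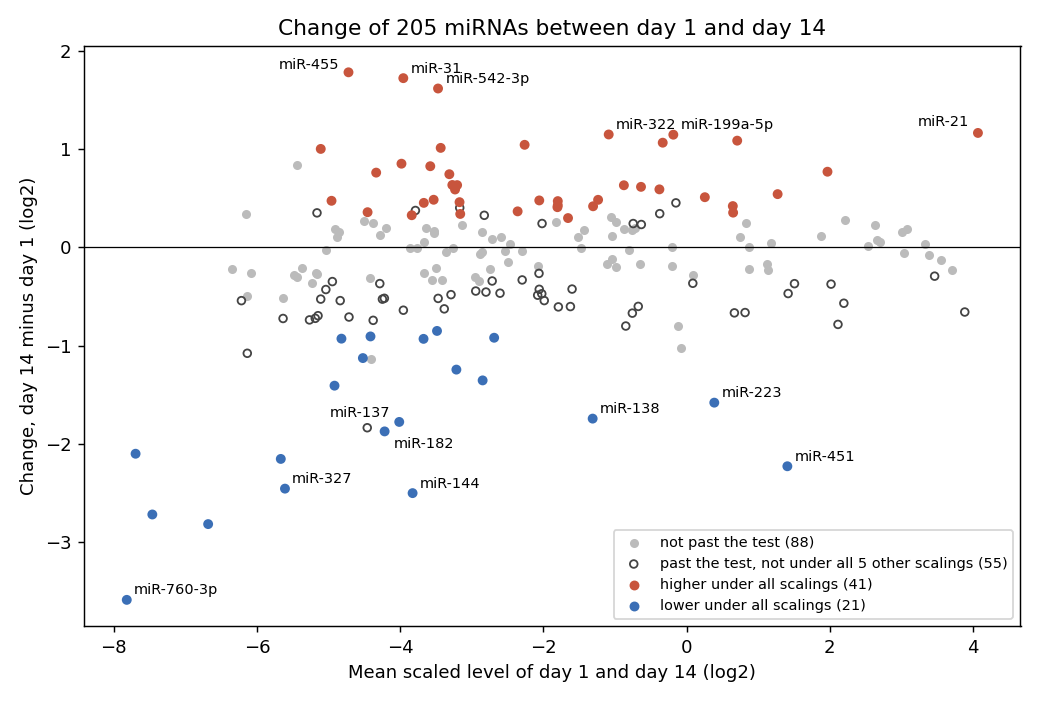
Change between day 1 and day 14 (vertical axis, log2) against the mean scaled level of both groups (horizontal axis, log2) for the 205 miRNAs. Filled coloured points are the 41 rises and 21 falls that held under all 5 other scalings, open points the 55 that passed the test without holding and grey points the 88 that did not pass. The fitted held falls reach -3.59 (miR-760-3p, detected on no day 14 array) and the held rises 1.79 (miR-455, detected on 1 of 3 day 1 arrays), and levels of different miRNAs are not to be compared.

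The miRNAs known to respond to injury and growth signals were mostly higher on day 14 than on day 1: 4 of the 6 measured rose and none fell, with a median change of 0.42 beside -0.07 for all tested. There were 3 rises and 1 fall without day 14 replicate 3. miR-21, which growth and inflammatory signals induce and which protects cells from death, rose 2.25-fold. Its levels were 3.54, 3.34 and 3.59 on day 1 and 4.61, 4.51 and 4.84 on day 14. Every day 14 array was above every day 1 array, and the change was 1.17 ± 0.12 (adjusted p = 7.71e-06). In the authors' deposited table the same change was 0.69, and the call held.

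miR-31, which was not detected on any uninjured array, stood at -4.97, -4.97 and -4.52 on day 1 and at -2.90, -3.01 and -3.37 on day 14. It rose by 1.73 ± 0.48 (3.31-fold, adjusted p = 0.00857). The SD of its undetected day 0 values, 1.38, entered that standard error. Its highest mean levels were on day 4, at -1.96 ± 0.19 (SD), and day 7, at -2.21 ± 0.08. miR-221, known to repress the cell cycle inhibitor p27, went from -1.52, -1.45 and -1.47 to -1.21, -0.80 and -0.97, a held rise of 0.49 ± 0.10 (adjusted p = 0.00138). Its neighbour miR-222 was at -3.78, -3.67 and -3.63 and then at -3.80, -3.12 and -4.01. That change of 0.05 ± 0.19 did not pass (adjusted p = 0.845), its sign turned under 5 alternatives, and the difference between the 2 miRNAs was not tested. miR-132, a target of the transcription factor CREB, rose by 0.36 ± 0.11 (adjusted p = 0.0127). That call was lost without day 14 replicate 3 (0.26) or day 1 replicate 1 (0.25), and the sign turned to -0.13 with the normexp background. miR-212, a miRNA of the same CREB-responsive cluster named after its values were seen, was at -3.48, -3.38 and -3.32 on day 1 and at -4.26, -4.06 and -2.83 on day 14. Day 14 replicate 3 lay above the day 1 arrays and the other 2 below them, and the change of -0.33 ± 0.28 did not pass (adjusted p = 0.326). Without that array it passed as a fall of -0.89 (adjusted p = 0.000195).

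Hairpins of the X-linked miR-322 cluster rose together. The cluster holds miR-322, the rodent counterpart of human miR-424, and miR-503, which restrain the cell cycle, and the 2 arms of miR-542. All 5 listed members detected by the rule (miR-322, miR-503, miR-450a and both arms of miR-542) rose, held under the 5 other scalings and showed no overlap between groups, with a median change of 1.02. Among all tested, 19.0% rose and held, and 54.5% showed no overlap. In addition miR-322* rose by 0.75 ± 0.10 (adjusted p = 0.000109). miR-503 and miR-322* are named after their values were seen, to complete the cluster.

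miR-542-3p had the largest rise among miRNAs detected on all 6 arrays after miR-31. It was at -4.40, -4.02 and -4.42 on day 1 and at -2.71, -2.76 and -2.51 on day 14. The groups lay far apart, and the change was 1.62 ± 0.14 (3.08-fold, adjusted p = 3.93e-06). The opposite arm, miR-542-5p, rose by 1.02 ± 0.12 (adjusted p = 2.02e-05). miR-322 went from -1.75, -1.54 and -1.70 to -0.63, -0.61 and -0.30, a rise of 1.15 ± 0.11 (2.22-fold, adjusted p = 5.29e-06). miR-503 rose by 0.83 ± 0.13 (adjusted p = 0.000356) and miR-450a by 0.85 ± 0.12 (adjusted p = 9.7e-05). With the normexp background these changes were smaller: 0.61 for miR-542-3p, 0.31 for miR-542-5p, 0.20 for miR-503 and 0.13, no longer past the test, for miR-450a.

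On day 1 the means of miR-322 and miR-542-3p lay below those of uninjured nerve. miR-322 averaged -0.78 ± 0.13 (SD) on day 0, -1.66 ± 0.11 on day 1 and -0.51 ± 0.18 on day 14, and miR-542-3p -3.19 ± 0.15, -4.28 ± 0.23 and -2.66 ± 0.13. Against day 0, in the same model, day 14 was higher by 0.53 ± 0.14 for miR-542-3p (adjusted p = 0.00524) and by 0.27 ± 0.11 for miR-322 (adjusted p = 0.0428). In that comparison 67.1% of the 231 miRNAs passed. The call for miR-322 against day 0 was lost under 5 alternatives, among them array weights (0.23, adjusted p = 0.124).

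The seed AGCAGCA of miR-322 is shared by miR-16, miR-195, miR-15b and miR-497. Of these 5 miRNAs 4 rose, none fell and the median change was 0.42. miR-497 went from -0.0028, 0.15 and -0.14 to 0.39, 0.61 and 0.54, a held rise of 0.51 ± 0.09 (adjusted p = 0.000645). Its neighbour miR-195 rose by 0.36 ± 0.10 (adjusted p = 0.00857) and miR-15b by 0.42 ± 0.10 (adjusted p = 0.00395). All 3 kept the direction without day 14 replicate 3, where miR-195 (0.16, adjusted p = 0.181) was no longer past the test. Probes of relatives can take up each other's signal, so the members of a family are not independent.

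**Figure D2:**
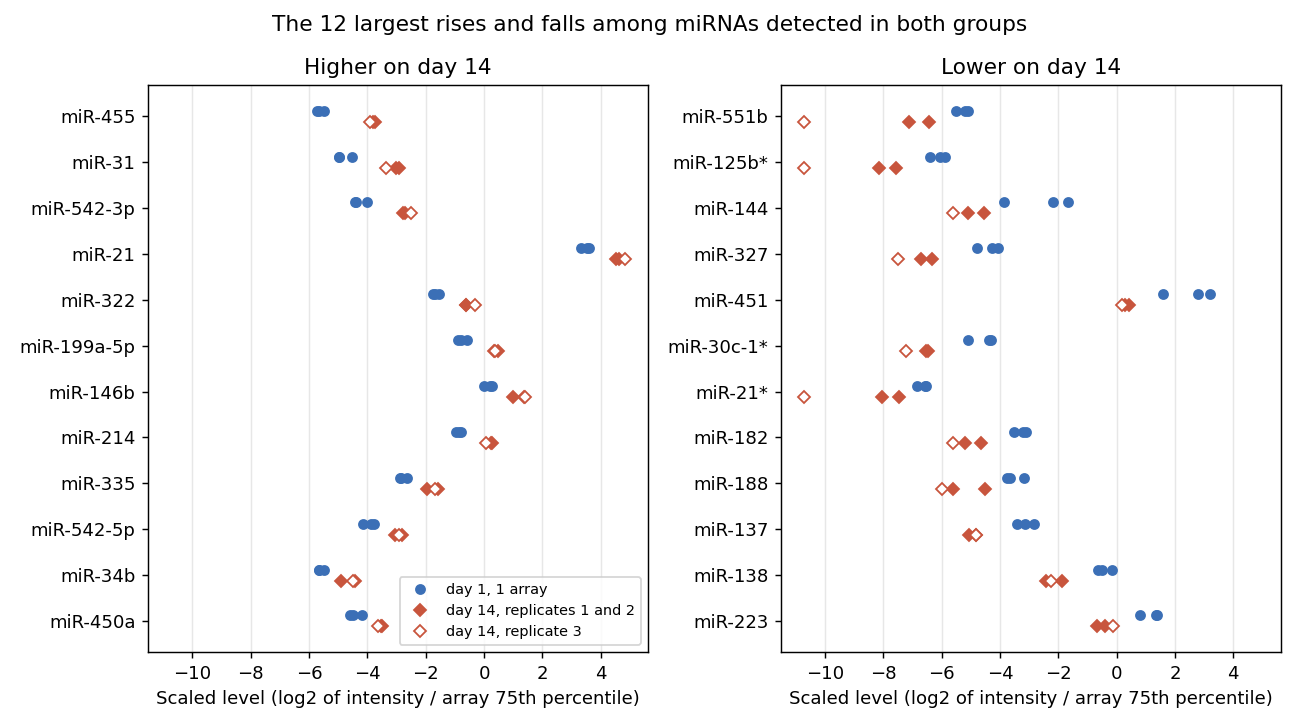
Scaled levels (log2) of the 12 largest rises (left) and the 12 largest falls (right) among miRNAs past the test, detected in both groups and without overlap between them. Each symbol is 1 array: circles are day 1, filled diamonds day 14 replicates 1 and 2, and open diamonds day 14 replicate 3. The open diamonds of miR-551b, miR-125b* and miR-21* lie at the floor of -10.73.

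Mesenchymal miRNAs rose in part. The list of smooth muscle and fibroblast miRNAs split into 3 rises and 2 falls of 5. None had overlapping groups, beside 54.5% of all tested without overlap. miR-199a-5p and miR-214, transcribed together in fibroblasts and other mesenchymal cells, both rose more than 2-fold. miR-199a-5p went from -0.79, -0.60 and -0.88 to 0.48, 0.33 and 0.36, a rise of 1.15 ± 0.11 (adjusted p = 5.78e-06). miR-214 went from -0.95, -0.81 and -0.84 to 0.29, 0.24 and 0.08, a rise of 1.07 ± 0.10 (adjusted p = 5.29e-06). The other arm, miR-199a-3p, rose by 0.77 ± 0.10 (adjusted p = 3.79e-05). Compared with uninjured nerve, day 14 was higher by 0.57 ± 0.11 for miR-199a-5p (adjusted p = 0.000728) and by 0.48 ± 0.10 for miR-214 (adjusted p = 0.00129).

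The 2 falls of that list were miR-145 and miR-143, which neighbour each other and mark contractile smooth muscle. miR-145 was at -2.26, -2.07 and -2.18 on day 1 and at -3.69, -3.28 and -3.60 on day 14. No day 14 array reached the day 1 range, and the held fall was -1.36 ± 0.11 (2.56-fold lower, adjusted p = 3.93e-06). Against day 0 it was lower by -0.76 ± 0.11 (adjusted p = 9.04e-05). miR-143, named after its values were seen, fell by 0.47 on the log2 scale (SE 0.10, adjusted p = 0.0021), and its sign turned to 0.06 with no scaling.

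Both measured members of the inflammation list rose and held. miR-146a and miR-146b share the seed GAGAACU. miR-146a is known to be induced by NF-kB and to repress kinases upstream of it. miR-146b went from 0.01, 0.21 and 0.27 to 0.98, 1.37 and 1.40, a rise of 1.09 ± 0.13 (2.13-fold, adjusted p = 2.39e-05). miR-146a went from -0.98, -0.87 and -0.99 to -0.23, -0.38 and -0.37, a rise of 0.62 ± 0.09 (adjusted p = 0.000203). The 2 differed in where day 1 stood: miR-146b averaged -0.38 ± 0.22 (SD) on day 0 and 0.16 ± 0.14 on day 1, miR-146a -0.25 ± 0.11 and -0.94 ± 0.07. On day 14 miR-146b was above day 0 by 1.64 ± 0.13 (adjusted p = 6.35e-07). For miR-146a the day 14 levels of -0.23, -0.38 and -0.37 lay near its day 0 mean of -0.25. Its rise is thus measured from a day 1 mean below that of uninjured nerve. miR-147, also on that list, was not detected on any of the 6 arrays.

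Of the matrix-linked miRNAs 2 of 3 rose. miR-455, encoded within the collagen gene Col27a1, stood at -5.65, -5.48 and -5.71 on day 1, where 1 of 3 arrays detected it, and at -3.81, -3.75 and -3.92 on day 14, where all did. The rise was 1.79 ± 0.10 (adjusted p = 6.47e-08) and is measured against values that were not above background on 2 day 1 arrays. Its size rested on how dim values were treated, with 3.75 from the software's total gene signal, 4.49 in the authors' deposited table and 0.27 with the normexp background. miR-455 was above day 0 by 1.42 ± 0.10 (adjusted p = 2.55e-07), and its means on days 4, 7 and 14 were -4.88, -4.32 and -3.83. miR-140, a cartilage miRNA encoded within Wwp2, rose by 0.42 ± 0.09 (adjusted p = 0.00189).

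Other rises over 2-fold were miR-335, encoded within the imprinted gene Mest, and miR-34b, a p53 target. miR-335 went from -2.87, -2.64 and -2.85 to -1.58, -1.95 and -1.68, a held rise of 1.05 ± 0.13 (adjusted p = 3.79e-05). miR-34b, detected on 2 of 3 day 1 arrays, rose by 1.01 ± 0.15 (adjusted p = 0.000217). With the normexp background its change was -0.04, and 3.36 in the authors' deposited table. The other measured miRNA of the miR-34 list, miR-34a, did not rise with it. It changed by -0.22 ± 0.13 and did not pass (adjusted p = 0.165), and its groups overlapped. That change passed as a rise with no scaling (0.31) and as a fall with another percentile.

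The falls included the glial miRNA miR-138 but not the other measured miRNAs of its list. miR-138, abundant in neurons and Schwann cells, was at -0.63, -0.17 and -0.51 on day 1 and at -2.44, -1.87 and -2.24 on day 14. The groups were well separated, and the held fall was -1.75 ± 0.17 (3.35-fold lower, adjusted p = 6.78e-06). Its mean was the same on day 0 and day 1, at -0.43 ± 0.24 and -0.44 ± 0.24 (SD), then -1.40 ± 0.18 on day 4 and -2.12 ± 0.12 on day 7. Day 14 was thus lower than day 0 by -1.75 ± 0.17 (adjusted p = 4.56e-06).

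miR-338, encoded within the kinase gene Aatk and a marker of myelinating glia, was at 3.27, 3.54 and 3.13 on day 1 and at 3.09, 3.54 and 3.42 on day 14. Its groups overlapped, and the change of 0.04 ± 0.17 did not pass (adjusted p = 0.868). It remained below day 0 on day 14, by -0.79 ± 0.17 (adjusted p = 0.00129), a call lost with quantile normalisation (-0.19), no scaling (-0.41) and the authors' deposited table (-0.19). miR-204, also of this list, averaged 0.87 ± 0.23 (SD) on day 1 and 0.87 ± 0.18 on day 14. The sign of both small changes turned under other settings, and with no scaling both passed as rises. The other arm of the miR-338 hairpin, miR-338*, was named after its values were seen. It was detected on all 6 arrays, and its change of -0.91 ± 0.17 passed (adjusted p = 0.000997) and held. The difference between the 2 arms was not tested. miR-211 was detected on no day 1 array and on 2 day 14 arrays, and miR-219-5p on none and 1. The glial markers expected of nerve, miR-338, miR-204 and miR-138, were detected on all 6 arrays.

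All 6 measured miRNAs of the neuron list fell without overlap between groups, by -1.78 to -0.45, with a median of -0.59. Of all tested, 30.7% fell and 54.5% did not overlap. With no scaling 2 of the 6 stayed past the test, and the sign turned for miR-9 (0.040), miR-128 (0.072) and miR-7a (0.0082). miR-9 and miR-128 are named after their values were seen. miR-137 was at -3.42, -2.82 and -3.13 on day 1 and at -5.06, -4.81 and -4.83 on day 14, where 2 of 3 arrays detected it. The held fall was -1.78 ± 0.16 (adjusted p = 5.29e-06). The software's total gene signal gave -3.01 and the normexp background -0.93. miR-124, the most abundant neuronal miRNA of the brain, went from -2.71, -2.40 and -2.67 to -4.06, -3.50 and -3.95, a held fall of -1.25 ± 0.16 (2.37-fold lower, adjusted p = 4.82e-05). miR-218 fell by 0.67 and miR-7a by 0.52 on the log2 scale (SE 0.14 and 0.09, adjusted p = 0.00213 and 0.000716), and neither held. Of the rest of the list, miR-7b, miR-129, miR-153 and miR-383 were not detected on any of the 6 arrays. The summed scaled level of the 6 measured was 1.36 to 1.81 on day 1 and 0.846 to 1.02 on day 14.

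The neighbouring miR-182, miR-96 and miR-183, a cluster known from sensory organs and sensory neurons, fell together and held. miR-182 was at -3.54, -3.10 and -3.21 on day 1 and at -5.19, -4.66 and -5.62 on day 14. The fall was -1.88 ± 0.21 (3.67-fold lower, adjusted p = 1.51e-05). miR-183 fell by 0.93 ± 0.14 (adjusted p = 0.000217) and miR-96 by 0.92 ± 0.16 (adjusted p = 0.00059). With no scaling the falls of these last 2 were -0.41 and -0.39 and still passed. miR-182 was also below day 0 on day 14, by -0.88 ± 0.21 (adjusted p = 0.00256).

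Blood-cell miRNAs did not move as a group. miR-223, a miRNA of granulocytes and other myeloid cells, was at 1.36, 0.80 and 1.39 on day 1 and at -0.40, -0.66 and -0.14 on day 14. It fell by 1.58 ± 0.17 (3.00-fold lower, adjusted p = 1.07e-05), the groups did not overlap and the fall held. Its means were 1.18 ± 0.33 (SD) on day 1, 0.53 ± 0.16 on day 4, 0.19 ± 0.06 on day 7 and -0.40 ± 0.26 on day 14. Against day 0 the day 14 difference of 0.21 ± 0.17 did not pass (adjusted p = 0.286), except with the percentile over all miRNAs (0.57, adjusted p = 0.028).

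Of the 5 leukocyte miRNAs measured, 2 rose and 2 fell, or 1 and 2 without day 14 replicate 3. miR-142-3p, shared by the blood cell lineages, went from -0.46, -0.50 and -0.16 to 0.05, -0.13 and 0.31, a rise of 0.45 ± 0.13 (adjusted p = 0.0101). That call was lost under 5 alternatives, among them the one without day 14 replicate 3 (0.22, adjusted p = 0.112). The other arm of its hairpin, miR-142-5p, changed by 0.20 ± 0.14 and did not pass (adjusted p = 0.229). It passed without day 1 replicate 3 (0.37) and was -0.01 without day 14 replicate 3. miR-342-3p rose by 0.48 ± 0.11 (adjusted p = 0.00258) and held. miR-150, a lymphocyte miRNA, fell by 0.60 ± 0.11 (adjusted p = 0.000847), but by 0.08, not past the test, with no scaling.

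Both red cell miRNAs fell and held. miR-451 and miR-144 come from a single transcript of the red cell lineage. miR-451 was at 1.57, 2.80 and 3.20 on day 1 and at 0.27, 0.41 and 0.20 on day 14, a fall of 2.23 ± 0.59 (4.70-fold, adjusted p = 0.00714). miR-144 was at -3.86, -2.19 and -1.67 and then at -5.09, -4.55 and -5.60, detected on 2 of 3 day 14 arrays, a fall of 2.51 ± 0.60 (adjusted p = 0.00375). Day 1 replicate 1 was the lowest day 1 array for both, and the arrays of day 1 differed among themselves more than those of day 14. The pair's summed scaled level was 3.04 to 9.53 on day 1 and 1.17 to 1.37 on day 14. miR-451 did not differ past the test between day 14 and day 0 (-0.73 ± 0.59, adjusted p = 0.296). The part of red cells and other blood in the pieces in the falls of miR-223 and miR-150 was not tested.

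**Figure D3:**
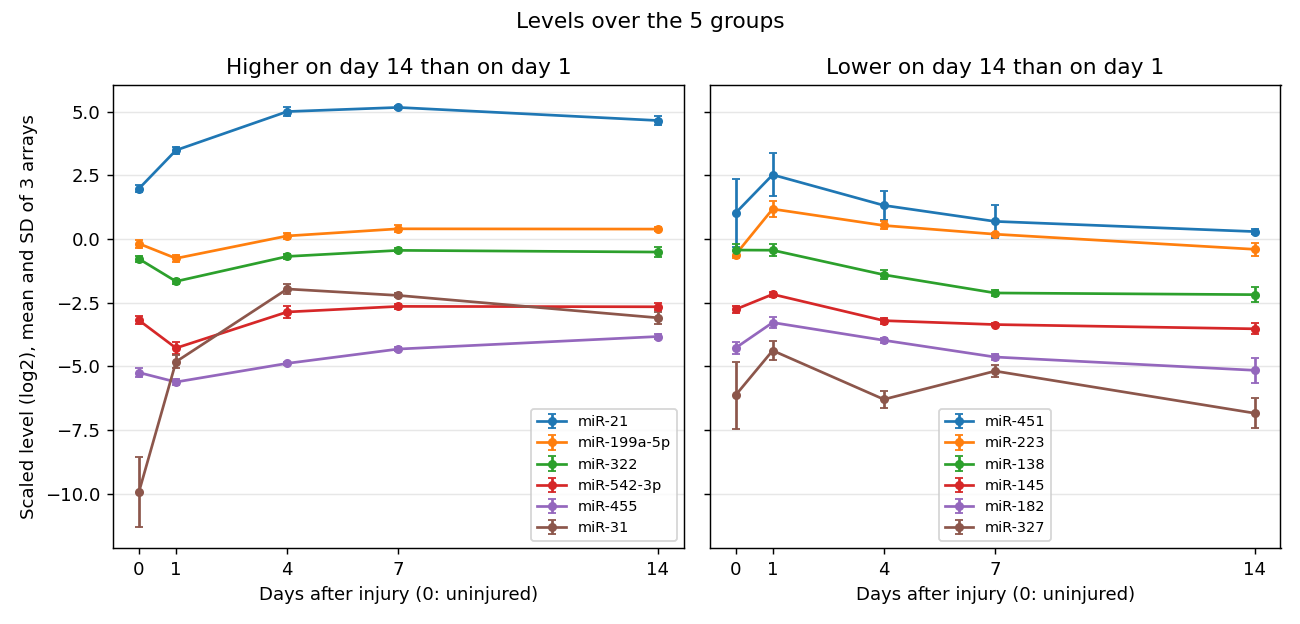
Mean scaled level (log2, bars are the SD of 3 arrays) on days 0, 1, 4, 7 and 14 for 6 miRNAs higher on day 14 than on day 1 (left) and 6 lower (right). miR-21 and miR-31 were highest on days 4 and 7, and miR-455 on day 14. On the right every miRNA except miR-223 had its lowest mean on day 14, by little for miR-138 (-2.18, beside -2.12 on day 7).

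Muscle miRNAs differed widely between arrays of a group. Of the 5 measured only miR-499, encoded within a myosin heavy chain gene, passed: it fell by 0.93 ± 0.18 (adjusted p = 0.00127) and was detected on 2 of 3 day 14 arrays. miR-1 was at 0.51, -0.51 and 0.85 on day 1 and at 0.03, -1.62 and 0.02 on day 14, so that the groups overlapped (change -0.80 ± 0.99, adjusted p = 0.493). miR-133a and miR-133b had changes of -1.13 ± 0.74 and -1.03 ± 0.92 that did not pass (adjusted p = 0.206 and 0.347). The groups of miR-133a did not overlap, and those of miR-133b did. The day 0 SDs of miR-1, miR-133a and miR-133b, 2.49, 2.13 and 2.43, entered their standard errors. For miR-133a the SD was 0.45 on day 1 and 0.40 on day 14. Fitted on the 6 arrays alone, miR-133a passed (adjusted p = 0.0229). The list's summed scaled level was 1.66 to 3.96 on day 1 and 0.881 to 2.23 on day 14, and miR-208 was not detected on any of the 6. Whether muscle in the pieces bears on the falls was not tested.

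Neither endothelial miRNA passed, with changes of 0.05 for miR-126 and 0.08 for miR-126*. miR-126 passed as a fall without day 14 replicate 3 (-0.19, adjusted p = 0.0432), and with no scaling both passed as rises (0.57 and 0.61). Of the epithelial list, miR-200a, miR-200b, miR-200c, miR-141 and miR-429 were not detected on any of the 6 arrays. miR-205 rose by 0.33 ± 0.10 (adjusted p = 0.0136), a call lost without day 14 replicate 3 (0.22) and turned to -0.06 with the normexp background. miR-203, the other one measured, changed by -0.03 ± 0.14 and did not pass (adjusted p = 0.88). The list's summed scaled level was 0.0853 to 0.103 on day 1 and 0.101 to 0.118 on day 14. Of the liver and pancreas list, miR-122, miR-375, miR-216a and miR-217 were not detected on any of the 6 arrays. miR-192, detected on 2 of 3 day 14 arrays, fell by 0.35 ± 0.13 (adjusted p = 0.0408). That call was lost under most alternatives, among them those without day 1 replicate 2 (-0.31), day 1 replicate 3 (-0.26) or day 14 replicate 1 (-0.26).

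miR-210, which the hypoxia factor HIF induces, fell by 0.85 ± 0.15 (adjusted p = 0.000645) and held. It was at -3.09, -2.99 and -3.10 on day 1 and at -4.11, -3.53 and -4.10 on day 14. miR-33, encoded within the sterol regulator gene Srebf2, fell by 0.54 ± 0.20 (adjusted p = 0.0319) and was detected on 2 of 3 day 14 arrays. That call was lost under 11 of the alternatives, among them those without day 1 replicate 2 (-0.39), day 1 replicate 3 (-0.53) or day 14 replicate 1 (-0.55).

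Among the largest falls were those of miRNAs missed on 1 or more day 14 arrays, for which the day 14 values are in part not above background. miR-760-3p was detected on all day 1 arrays, at -6.00, -5.95 and -6.11, and on no day 14 array. The fall passed the test (adjusted p = 0.00282), with a measured day 14 mean of -9.62. A fold of 4.29 sets the day 1 mean of -6.02 against a stand-in for each day 14 array. The stand-in is the lowest level of any detected miRNA, or the miRNA's own level where that was higher. This fold is no strict bound, since probes differ and other miRNAs were missed at higher levels. An example is miR-203, which was detected on 2 of 3 day 14 arrays, with levels of -5.23, -4.84 and -5.11. It was not among the falls: it was at -5.25, -5.08 and -4.76 on day 1, and its change of -0.03 did not pass (adjusted p = 0.88).

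miR-327 fell from -4.79, -4.08 and -4.26 to -6.33, -6.70 and -7.48 (-2.46 ± 0.51, adjusted p = 0.00176) and was detected on 1 of 3 day 14 arrays. miR-30c-1* fell from -5.08, -4.30 and -4.38 to -6.48, -6.53 and -7.22 (-2.16 ± 0.30, adjusted p = 9.15e-05) and was detected on 2 of 3. These 2 and miR-760-3p held. miR-188, detected on 2 of 3 day 14 arrays, fell by 1.84 ± 0.46 (adjusted p = 0.00465), but was not past the test in the software's total gene signal (-2.96, adjusted p = 0.0729) or the authors' deposited table (-3.12, adjusted p = 0.0765). On day 0 miR-760-3p was detected on no array, miR-327 and miR-188 on 1, and miR-30c-1* on all 3.

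Another 3 falls owed much of their size to day 14 replicate 3, where the miRNA was at the floor. On day 14 miR-551b and miR-21* were detected on 1 of 3 arrays and miR-125b* on 2, so that the sizes given, with and without that array, rest in part on values not above background. miR-551b was at -5.52, -5.10 and -5.20 on day 1 and at -7.11, -6.44 and -10.73 on day 14 (-2.82 ± 0.77, adjusted p = 0.00812). Without that array the change was -1.62 (adjusted p = 3.9e-05). miR-125b*, the minor arm of a miR-125b hairpin, fell by 2.72 ± 0.59 (adjusted p = 0.00222), or by 1.89 without that array. miR-21* was at -6.57, -6.83 and -6.53 on day 1 and at -7.46, -8.05 and -10.73 on day 14 (-2.10 ± 0.58, adjusted p = 0.00857), or -1.23 without that array. With a floor at the 5th percentile of detected values, added after seeing the data, its change was 0.00 and the call was lost. miR-21 itself rose, as given above; the difference between the arms was not tested. With only the 6 arrays fitted, miR-551b and miR-21* did not pass (adjusted p = 0.0671 and 0.0695).

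**Figure D4:**
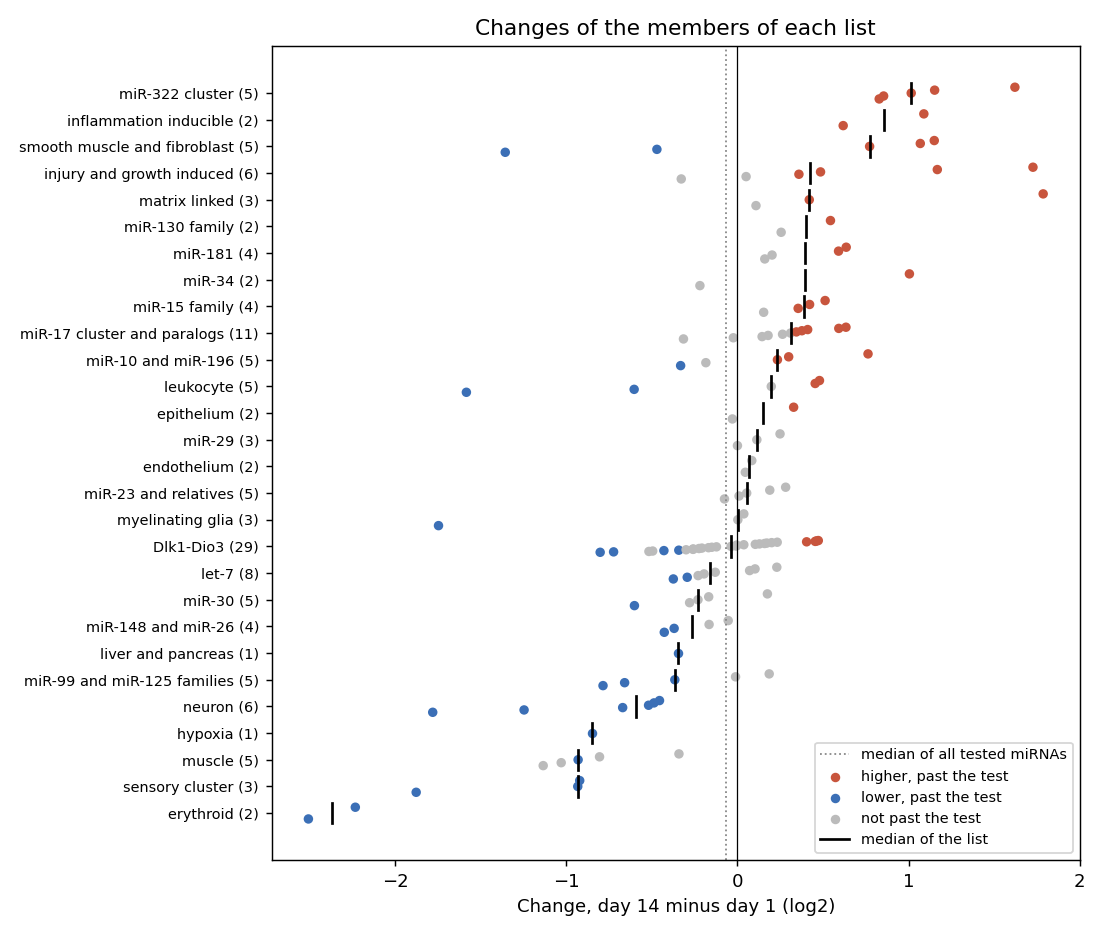
Change between day 1 and day 14 (log2) for each measured miRNA of 28 lists, ordered by list median (black bar), with the number measured in brackets. Red points passed the test as rises, blue points as falls, grey points did not pass, and the dotted line is the median of all 231 tested. Every point of the miR-322 cluster is red, and every point of the neuron, sensory cluster and erythroid lists is blue.

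The let-7 family, which promotes differentiation, had 2 falls and no rise among 8 members, which share the seed GAGGUAG (median change -0.16). That is near the background, since 30.7% of all tested fell, with a median of -0.07. let-7c was at 3.51, 3.80 and 3.53 on day 1 and at 3.20, 3.42 and 3.34 on day 14 (-0.29 ± 0.10, adjusted p = 0.023). let-7d fell by 0.37 ± 0.09 (adjusted p = 0.00468). Neither held: with no scaling 4 of the 8 passed as rises and none as a fall. Without day 14 replicate 3 there were 5 falls, and without day 1 replicate 2 or day 14 replicate 1 there were 1 rise and 1 fall, with let-7c no longer past the test (-0.20 and -0.23).

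The miR-99, miR-100 and miR-125 families, encoded near let-7 genes, had 3 falls and no rise among 5 members (median -0.37). miR-125b-5p, which is abundant in nerve, was at 4.04, 4.44 and 4.16 on day 1 and at 3.31, 3.82 and 3.55 on day 14. It fell by 0.66 ± 0.15 (adjusted p = 0.00235), or by 0.13, not past the test, with no scaling. miR-99a fell by 0.78 ± 0.13 (adjusted p = 0.000355), or by 0.26, not past the test, with no scaling. miR-100 fell by 0.37 ± 0.14 (adjusted p = 0.0392), a call lost under 8 alternatives, among them those without day 1 replicate 2 (-0.23) or day 14 replicate 1 (-0.25), and its sign turned with no scaling. Against day 0, miR-99a was lower on day 14 by -1.39 ± 0.13 (adjusted p = 2.84e-06) and miR-125b-5p by -1.03 ± 0.15 (adjusted p = 6.7e-05).

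The miRNAs within Hox gene clusters split: of 5 members 3 rose and 1 fell, or 1 and 2 without day 14 replicate 3. Among all tested, 23.8% rose and 30.7% fell. The 3 miR-196 miRNAs share the seed AGGUAGU. miR-196c rose by 0.76 ± 0.09 (adjusted p = 2.21e-05) and miR-196a by 0.30 ± 0.08 (adjusted p = 0.0067), whereas miR-196b fell by 0.33 ± 0.11 (adjusted p = 0.02). The groups did not overlap for any of them, but the fall of miR-196b turned to 0.20 with no scaling and was lost without day 1 replicate 2 (-0.26) or day 14 replicate 1 (-0.25). The rises of miR-196a (0.15) and miR-196c (0.04) were lost with the normexp background, as was that of miR-10a-5p, 0.23 ± 0.09 as reported (adjusted p = 0.0421). Without day 14 replicate 3 miR-196a (0.14, adjusted p = 0.201) and miR-10a-5p (0.05, adjusted p = 0.632) no longer passed. The call of miR-10a-5p was also lost without day 1 replicate 1 (0.18), day 1 replicate 3 (0.22) or day 14 replicate 2 (0.23). miR-10b, named after its values were seen, changed by -0.18 ± 0.09 and did not pass (adjusted p = 0.109), but passed as a fall without day 14 replicate 3 (-0.39) or day 1 replicate 1 (-0.26).

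In the miR-17 cluster and its paralogs, which are linked to dividing cells, 5 of 11 rose and none fell (median 0.31), or 2 of 11 without day 14 replicate 3, day 14 replicate 2 or day 1 replicate 1. The seed AAAGUGC, carried by 5 of them, had 3 rises. miR-106b went from -1.38, -1.10 and -1.10 to -0.76, -0.43 and -0.48, a held rise of 0.63 ± 0.11 (adjusted p = 0.000451). miR-19b rose by 0.59 ± 0.10 (adjusted p = 0.000538) and held. miR-93 rose by 0.41 ± 0.13 and miR-20a by 0.34 ± 0.11 (adjusted p = 0.0182 and 0.017). Both calls were lost without day 14 replicate 3 (changes of 0.26 and 0.18), day 14 replicate 2 (0.33 and 0.30) or day 1 replicate 1 (0.26 and 0.25). miR-18a was at -4.53, -4.25 and -4.02 and then at -4.58, -4.49 and -4.68, and its change of -0.31 ± 0.16 did not pass (adjusted p = 0.109). Without day 1 replicate 1 it passed as a fall (-0.45, adjusted p = 0.0378).

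In the miR-181 family, which share the seed ACAUUCA, 2 of 4 rose and none fell. miR-181d rose by 0.64 ± 0.13 (adjusted p = 0.00186) and miR-181b by 0.59 ± 0.12 (adjusted p = 0.00143). Both held under the other scalings but not with the normexp background (0.18 and 0.14). miR-181a, at 0.20 ± 0.13, did not pass (adjusted p = 0.204). miR-130a, known to promote vessel growth, rose by 0.54 ± 0.11 (adjusted p = 0.00192).

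Of the 29 measured miRNAs on the list for the imprinted Dlk1-Dio3 region, 4 rose and 4 fell (median -0.04). Among all tested, 23.8% rose and 30.7% fell. The list is not complete: the hairpin of miR-341, named after its values were seen, lies between those of miR-136 and miR-379 in GRCr8, and miR-341 fell by 0.64 ± 0.11 (adjusted p = 0.000645). miR-379 rose by 0.47 ± 0.12 (adjusted p = 0.00424) and miR-299 by 0.46 ± 0.10 (adjusted p = 0.00192). miR-494 fell by 0.80 ± 0.19 (adjusted p = 0.0036) and miR-323, detected on 2 of 3 day 14 arrays, by 0.72 ± 0.13 (adjusted p = 0.000833). With no scaling these 2 calls and that of miR-341 (-0.11) were lost. Rises among the 29 numbered 19 and falls none with no scaling, and without day 14 replicate 3 there were 2 rises and 7 falls. There were 2 rises and 8 falls without day 1 replicate 1, 7 rises and 2 falls without day 1 replicate 2, and 7 falls without day 14 replicate 2.

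The families miR-29, which represses collagens, and miR-23, miR-24 and miR-27 had no call among 3 and 5 members. miR-29b was at 0.74, 0.78 and 0.62 on day 1 and at 0.81, 1.03 and 1.04 on day 14 (0.25 ± 0.11, adjusted p = 0.0763), and it passed as a rise under 7 alternatives, among them the one without day 14 replicate 1 (0.33). In the miR-23 list 1 member rose without day 1 replicate 2 and 2 rose without day 14 replicate 1. Of the miR-30 family 1 of 5 fell, miR-30d by 0.60 ± 0.13 (adjusted p = 0.00194). Without day 14 replicate 3 there were 3 falls, with miR-30b-5p (-0.37) and miR-30c (-0.38) past the test, beside changes of -0.28 ± 0.12 and -0.23 ± 0.11 as reported (adjusted p = 0.0592 and 0.0914). There were also 3 falls without day 14 replicate 2 and with the percentile over the miRNAs detected on the 6 arrays, and 2 without day 1 replicate 1. Without day 14 replicate 1 the list had 1 rise. Of the families of miR-148 and miR-26 2 of 4 fell, miR-148b-3p by 0.43 ± 0.12 (adjusted p = 0.0101) and miR-26b by 0.37 ± 0.10 (adjusted p = 0.00677). The share of all tested that fell was 30.7%. With no scaling the falls of miR-30d, miR-148b-3p and miR-26b did not pass, and the last 2 changed sign.

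Across the 164 miRNAs with a matched sequence, the change had a Pearson's r of -0.26 with the GC percentage of the mature sequence. Its r with the mean scaled level was 0.25 across the 205 miRNAs. Both are descriptions across miRNAs on shared arrays, and miRNAs are not independent replicates.

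**Figure D5:**
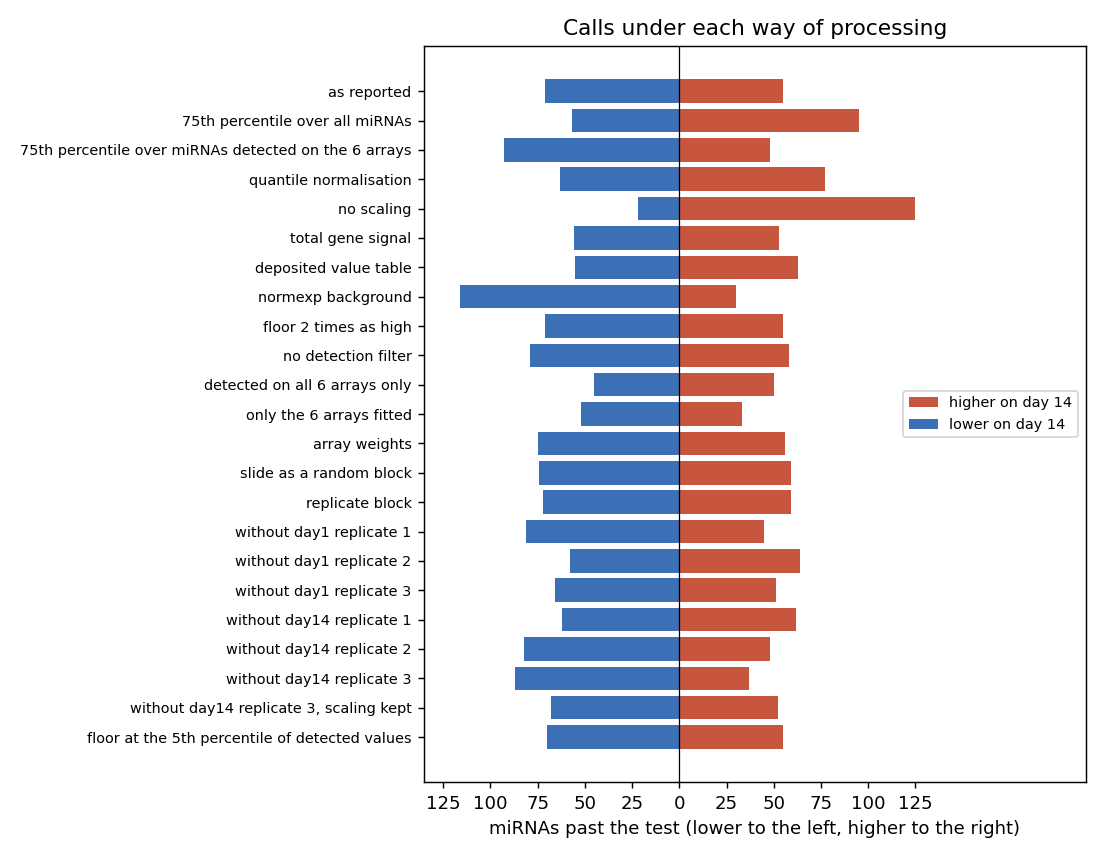
Number of tested miRNAs that passed as higher (red, to the right) or lower (blue, to the left) on day 14 under the reported setting and each alternative. The reported setting has 55 higher and 71 lower, no scaling has 125 and 22, and the normexp background has 30 and 116.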

How the data were processed

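MiRNA levels were measured on 1-colour arrays (350 rat miRNAs, 938 probes, 7000 spots). Per the file headers, the authors' intensity values came from Agilent Feature Extraction (version 10.7.3.1), with background subtracted per spot and no scaling between arrays. The authors' deposited table holds log2 values, judged by correlating each column with that array's log2 total gene signal (lowest r 0.965), and its centring is not stated. Its medians were 4.12, except 0.834 for day 14 replicate 3. It served as an alternative.

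Control and outlier spots were removed and signals averaged per probe, then per miRNA. Arrays were divided by their 75th percentile over the 164 miRNAs detected on all 15 arrays, floored at 0.000587 (log2 -10.73, the lowest positive value of a detected miRNA) and log2-transformed. The 231 miRNAs detected on all 3 arrays of any group were fitted with limma 3.58.1 (R 4.3.3, 10 residual and 2.37 prior degrees of freedom, two-sided, Benjamini-Hochberg, threshold 0.05). The step was tested on simulated data. Tables were made with Python 3.11.15 and pandas 2.3.3, figures with matplotlib 3.10.9. Array number and signal over background limit the precision.

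The rule for named miRNAs took the 12 largest rises and falls past the test, detected in both groups and without overlap, miRNAs past the test undetected in a whole group, 23 preset miRNAs, and up to 4 per list with the smallest adjusted p. The text gives most of these and summarises the rest as counts. Members, lists and names were chosen with earlier results of these data known. Lists match array names, in which an asterisk marks the minor arm. Alternatives changed the scaling, value source, background, floor, filter, arrays, weights and blocks. The normexp background was run on the median spot signal in place of the mean that had been planned. Slide was fitted as a random block.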

Additional observations from a re-analysis of the deposited data

How the results depend on the processing

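The number of miRNAs past the test stayed between 85 (only the 6 arrays fitted) and 152 (percentile over all miRNAs), beside 126. The number of rises, 55 as reported, was 95 with the percentile over all miRNAs, 125 with no scaling, 30 with the normexp background and 33 with only the 6 arrays fitted. The number of falls, 71 as reported, was 22 with no scaling, 116 with normexp and 45 when only miRNAs detected on all 6 arrays were tested. Leaving out 1 array at a time gave 117 to 130 calls, 37 to 64 rises and 58 to 87 falls. Without day 14 replicate 3 there were 37 rises and 87 falls, and 52 and 68 with the scaling kept. For the miRNAs named here that passed, 1491 of the values under alternatives stayed on the same side of the threshold with the same sign, 110 lost the call and 12 changed sign.

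With no scaling the sign turned for miR-7a (0.0082), miR-143 (0.057), miR-148b-3p (0.10), let-7d (0.15), miR-26b (0.16), miR-100 (0.16), miR-192 (0.18), miR-196b (0.20), miR-18a (0.21), let-7c (0.23), miR-212 (0.20), miR-30b-5p (0.25), miR-30c (0.30) and miR-10b (0.34, and 0.00 with the percentile over all miRNAs). With the percentile over the miRNAs detected on the 6 arrays it turned for miR-204 (-0.095), miR-338 (-0.060), miR-222 (-0.047), miR-126 (-0.051) and miR-126* (-0.013). miR-222 also turned with the total gene signal (-0.14), normexp (-0.17) and array weights (-0.089). With normexp the sign turned for miR-142-5p (-0.093), miR-205 (-0.060), miR-132 (-0.13), miR-34b (-0.042) and miR-126* (-0.077), and miR-204 (-0.034) and miR-126 (-0.071) turned without day 14 replicate 3 with the scaling kept. Leaving out 1 array at a time gave -0.15 to 0.14 for miR-204, -0.12 to 0.17 for miR-338, -0.21 to 0.13 for miR-222, -0.0099 to 0.37 for miR-142-5p, -0.19 to 0.11 for miR-126 and -0.038 to 0.16 for miR-126*. The turns of miR-9 and miR-128 with no scaling are given with the neuron list, and that of miR-34a with miR-34b. The causes were not tested.

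The labels pair no samples across groups. Deviations of same-numbered arrays had r of -0.07, 0.25 and -0.24, and not every array correlated best with its own number. With 3 arrays per group, whose deviations sum to 0, these values cannot decide whether samples were paired. A replicate block gave 131 calls, 59 higher and 72 lower. Slide as a random block (correlation -0.04) gave 133 calls, 59 higher and 74 lower. Since no slide held both groups, this block cannot tell slide from the time since injury. Dim miRNAs are limited by signal over background, above all on day 14 replicate 3.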
